A study of Mus musculus with 6 samples.

Results

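The galectin family was examined in mouse spinal cord 3 days after a clip crush. The 6 genes Lgals1, Lgals3, Lgals3bp, Lgals8, Lgals9 and Lgalsl were taken by gene name, out of 36629 genes in the files. The family was selected on the measured FPKM values of Lgals3, which had one of the largest rises between injured and sham cord, so the difference between the groups in these genes is a description and carries no test. Injured cord (spinal cord injury, SCI, 3 libraries) came from C57/BL6 mice aged 3 to 5 weeks. After laminectomy, in which the vertebral arch over the cord is taken away, a vascular clip of 60 g closed on their cord for 5 seconds. Sham cord (3 libraries) came from mice of the same strain and age with the laminectomy alone. Bulk polyadenylated RNA came from cord pieces spanning segments T8 to T12, wider than the exposed vertebrae T9 and T10. The labels do not say whether a library is 1 animal or a pool, nor that the replicates are separate animals, so p-values measure only the spread between these libraries.

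Galectins are small lectins that bind beta-galactoside sugars through a conserved carbohydrate recognition domain. They are made in the cytosol, leave the cell by a route that needs no signal peptide, and crosslink glycoproteins at the cell surface and in the matrix. Inside the cell they bind sugars exposed on the inner face of ruptured endosomes and lysosomes. In the injured central nervous system they are best known from activated microglia, infiltrating macrophages and reactive astrocytes, and galectin-3 (Mac-2) is a classical marker of phagocytes that take up myelin debris.

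Values are the authors' FPKM (fragments scaled to gene length and to the size of the library), so levels can be set side by side between genes. Per library, 16774 to 17202 genes reached 1 FPKM. Markers of neurons, astrocytes, oligodendrocytes, microglia and endothelium were present in every library. Of the tested markers, 6 of 6 shared phagocyte genes, 8 of 9 microglial, 9 of 9 monocyte and macrophage, 5 of 5 neutrophil, 4 of 5 fibroblast, 4 of 5 endothelial and 3 of 4 haemoglobin genes were higher in SCI cord in limma at an adjusted p under 0.05. Lower were 6 of 7 neuronal, 5 of 5 motor neuron, 4 of 6 oligodendrocyte, 2 of 3 Schwann cell and 1 of 5 endothelial genes. Of 6 astrocyte genes 3 were higher and 3 lower, 1 oligodendrocyte gene was higher, no muscle gene (of 4) or sensory ganglion gene (of 2) passed, and no T cell gene was high enough to test. SCI replicate 2 stood apart with 6.16% of its FPKM in haemoglobin genes, against 0.656% and 0.211% in SCI replicates 1 and 3. All 8 sensory ganglion genes were highest in SCI replicate 3, where Scn10a, a sodium channel of pain-sensing neurons, was at 6.6 FPKM and was listed at 0 in the other 5 libraries. The muscle genes summed to 34.8, 8.41 and 332 FPKM in SCI replicates 1, 2 and 3, against 25.7, 13.3 and 84.5 in sham replicates 1, 2 and 3. The Schwann cell genes summed to 106, 306 and 144 FPKM in SCI replicates 1, 2 and 3, against 1555, 525 and 1588 in sham replicates 1, 2 and 3.

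Galectin family genes split into a pair that hardly differed between the groups and a set of 4 that was far more abundant in injured cord. Lgals1, Lgals3, Lgals9 and Lgals3bp had non-overlapping groups with SCI higher, while Lgals8 and Lgalsl overlapped. The same contrast chose the family, so the counts of members that follow are descriptions and support nothing. In the fit over all 17435 genes tested, 4 of the 6 members were past the threshold, all higher, where 57.5% of all tested genes were past it in either direction and 26.7% were past it and higher. Without overlap between groups stood 4 of the 6, all with SCI higher, against 67.6% of all tested genes (30.7% with SCI higher and 36.9% with SCI lower). Every member was above 1 FPKM in all 6 libraries, so none entered the test through 1 group alone. The 6 genes summed to 1395, 1642 and 1234 FPKM in SCI replicates 1, 2 and 3, against 213, 222 and 216 in the sham libraries, which is 6.56-fold between the means.

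**Figure D1:**
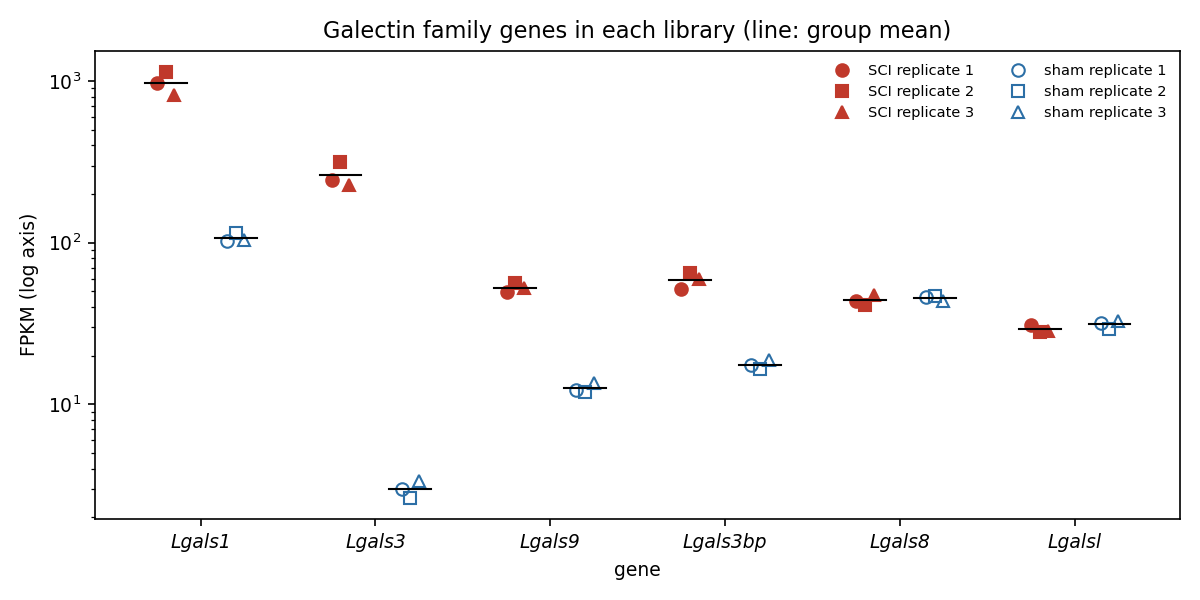
FPKM (log axis) of the 6 galectin family genes in each library, SCI in filled red and sham in open blue symbols, with a line at each group mean. Lgals3 averages 262 FPKM in SCI and 3.00 in sham libraries, while the groups overlap for Lgals8 and Lgalsl.

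Lgals3 encodes galectin-3, the chimera-type galectin whose long flexible tail lets it form oligomers. It was at 242.62, 314.21 and 228.71 FPKM in SCI replicates 1, 2 and 3, against 2.99, 2.65 and 3.36 in sham replicates 1, 2 and 3. All SCI libraries were high, and the lowest of them was 68.1 times the highest sham library. The means were 262 ± 45.9 and 3.00 ± 0.355 FPKM (SD, n = 3 each), an 87.3-fold difference. On the log2(FPKM + 1) scale the change was 6.03 (SE 0.13), the third largest rise among the tested genes, and the plain log2 ratio of the means was 6.45. Its level stood at the 98.4th percentile of tested genes in SCI cord and at the 24.2nd in sham cord, where it was the least abundant member. The log2 change was 5.89 without SCI replicate 2 and 6.12 without SCI replicate 3.

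Lgals1 encodes galectin-1, a small dimeric galectin made by glia, sensory neurons and stromal cells. It was at 975.66, 1136.71 and 817.53 FPKM in SCI replicates 1, 2 and 3, against 101.91, 114.94 and 104.01 in sham replicates 1, 2 and 3. The groups were far apart, and the lowest SCI library was 7.11 times the highest sham library. The means were 977 ± 160 and 107 ± 7.00 FPKM (SD, n = 3 each), 9.13-fold apart, with a log2 change of 3.17 (SE 0.13). It was the most abundant member in both groups, and at the 99.7th percentile of tested genes in SCI cord. Leaving out SCI replicate 2 or SCI replicate 3 gave log2 changes of 3.05 and 3.29. SCI replicate 3, the library with the most sensory ganglion and muscle RNA, was the lowest of the injured libraries for Lgals1. The part of such RNA in the Lgals1 values was not tested.

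Lgals9 encodes galectin-9, a tandem-repeat galectin with a pair of recognition domains that binds the receptor Tim-3 and is induced by interferon. It was at 49.4, 56.49 and 52.46 FPKM in SCI replicates 1, 2 and 3, against 12.31, 11.9 and 13.5 in sham replicates 1, 2 and 3. The groups did not overlap, and the replicates within each group were close, with coefficients of variation of 6.74% in SCI and 6.61% in sham cord. The log2 change was 1.99 (SE 0.09), a 4.20-fold difference between means of 52.8 ± 3.56 and 12.6 ± 0.831 FPKM (SD, n = 3 each).

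Lgals3bp encodes a secreted scavenger-receptor glycoprotein that is no galectin itself but binds galectin-3 and galectin-1, and it too is known as interferon-inducible. It was at 51.93, 65.04 and 59.77 FPKM in SCI replicates 1, 2 and 3, against 17.57, 16.45 and 18.8 in sham replicates 1, 2 and 3. No SCI library fell within the sham range. Its log2 change was 1.68 (SE 0.10), and the means of 58.9 ± 6.60 and 17.6 ± 1.18 FPKM (SD, n = 3 each) were 3.35-fold apart.

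Lgals8 encodes galectin-8, the tandem-repeat galectin that marks ruptured lysosomes and endosomes. It was at 43.87, 41.03 and 47.6 FPKM in SCI replicates 1, 2 and 3, against 46.19, 46.99 and 43.77 in sham replicates 1, 2 and 3. The highest of all 6 values was an injured library and the lowest was one too. The log2 change was -0.05 (SE 0.08), and its sign turned under median-ratio scaling (0.045) and without SCI replicate 2 (0.0021). Lgals8 overlaps Heatr1 on the opposite strand, which had 10.1 ± 1.29 FPKM in SCI and 7.85 ± 0.492 in sham libraries (SD, n = 3 each), and the strand setting used for counting is not given in the sources used here.

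Lgalsl encodes a galectin-related protein that has lost beta-galactoside binding, as known from its human counterpart. It was at 31.17, 28.02 and 28.36 FPKM in SCI replicates 1, 2 and 3, against 31.7, 29.1 and 32.74 in sham replicates 1, 2 and 3. The groups overlapped, since SCI replicate 1 exceeded sham replicate 2. The log2 change was -0.09 (SE 0.08), and it was 7.3e-04 under median-ratio scaling.

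The order of the levels differed between the groups. In SCI cord it ran Lgals1, Lgals3, Lgals3bp, Lgals9, Lgals8 and Lgalsl, where the ranges of Lgals3bp and Lgals9 overlapped and no other neighbours did. In sham cord it ran Lgals1, Lgals8, Lgalsl, Lgals3bp, Lgals9 and Lgals3, with no overlap between neighbours. Lgals3 therefore moved past 4 of the other members. Per unit of gene length, Lgals3 made up 18.4 ± 0.885% of the summed FPKM of the family in SCI cord and 1.38 ± 0.181% in sham cord (SD, n = 3 each). Lgals1 made up 68.5 ± 1.98% in SCI and 49.3 ± 2.17% in sham cord. The share of Lgals8 was 3.17 ± 0.678% in SCI and 21.0 ± 0.743% in sham cord, at a level that overlapped between the groups. Lgalsl made up 2.08 ± 0.324% in SCI and 14.4 ± 1.11% in sham cord, Lgals3bp 4.18 ± 0.589% and 8.12 ± 0.655%, and Lgals9 3.74 ± 0.441% and 5.80 ± 0.443%. The ratio of Lgals1 to Lgals3 was 3.74 ± 0.246 in SCI cord and 36.1 ± 6.46 in sham cord (SD, n = 3 each).

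**Figure D2:**
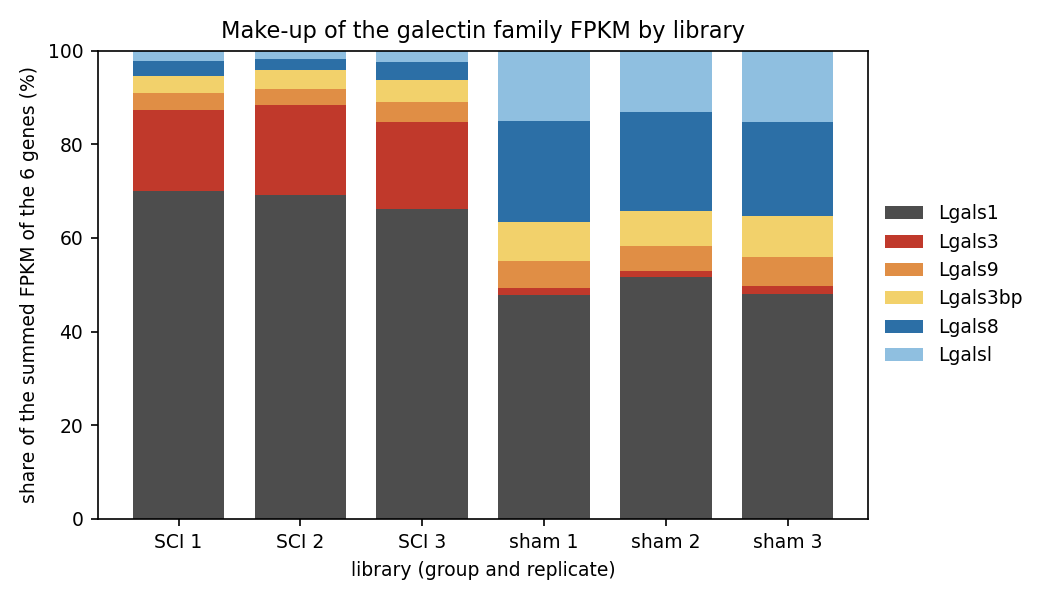
Share of the summed FPKM of the 6 galectin family genes (%, stacked to 100) in each library, SCI replicates 1 to 3 and then sham replicates 1 to 3. Lgals3 takes 17.4% to 19.1% in the SCI libraries and 1.19% to 1.55% in the sham libraries.

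On GRCm38 the 6 genes lie on 4 chromosomes. Lgals1 lies on chromosome 15 from 78926725 to 78930465 on the plus strand, and Lgals3 on chromosome 14 from 47367751 to 47386160 on the plus strand. Chromosome 11 holds Lgals9 from 78962974 to 78984946, Lgals3bp from 118392751 to 118402092 and Lgalsl from 20823576 to 20831056, all on the minus strand. Lgals8 lies on the minus strand of chromosome 13 from 12439415 to 12464944. Their identifiers are ENSMUSG00000068220, ENSMUSG00000050335, ENSMUSG00000001123, ENSMUSG00000033880, ENSMUSG00000042363 and ENSMUSG00000057554, listed in the order just given. Each value covers a whole gene, and GENCODE M21 lists 6 transcripts for Lgals3, 4 for Lgals9 and 10 for Lgals8. The pseudogene Lgals1-ps2 was at 0.04 to 0.34 FPKM over the 6 libraries. Of the members, Lgals8 alone overlaps another gene of the files.

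Promoter windows of 300 bases, 250 before and 50 after the RefSeq start, were found for 5 of the 6 members (all but Lgals1). They are shown for the gene with the largest rise (Lgals3), the interferon-inducible Lgals9 and the level Lgalsl, from RefSeq on GRCm38.p6, 5′ to 3′ on the strand of the gene, with matches to the searched motifs in capitals. The windows are chr14:47373610-47373909 on the plus strand, chr11:78984875-78985174 on the minus strand and chr11:20831059-20831358 on the minus strand.
Lgals3: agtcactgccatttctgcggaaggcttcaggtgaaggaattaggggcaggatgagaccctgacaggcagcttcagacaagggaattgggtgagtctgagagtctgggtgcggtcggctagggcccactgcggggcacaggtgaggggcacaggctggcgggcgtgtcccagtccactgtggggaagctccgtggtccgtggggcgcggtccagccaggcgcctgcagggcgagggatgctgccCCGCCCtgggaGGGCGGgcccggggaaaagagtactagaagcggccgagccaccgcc
Lgals9: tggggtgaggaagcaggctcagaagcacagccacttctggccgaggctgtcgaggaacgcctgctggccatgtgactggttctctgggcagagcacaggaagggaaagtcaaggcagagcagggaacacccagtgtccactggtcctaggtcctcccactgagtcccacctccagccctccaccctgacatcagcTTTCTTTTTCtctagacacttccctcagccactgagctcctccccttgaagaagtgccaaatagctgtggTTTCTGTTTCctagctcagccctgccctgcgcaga
Lgalsl: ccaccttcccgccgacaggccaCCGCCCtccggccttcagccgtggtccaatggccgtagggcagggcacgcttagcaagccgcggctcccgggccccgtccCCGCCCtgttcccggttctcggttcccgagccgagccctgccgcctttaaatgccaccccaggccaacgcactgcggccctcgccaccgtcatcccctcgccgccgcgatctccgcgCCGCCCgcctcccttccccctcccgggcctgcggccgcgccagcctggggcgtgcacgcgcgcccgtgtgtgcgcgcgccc

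Searched on both strands were the interferon response element (GAAA and GAAA with any 2 bases between them), the AP-1 site TGANTCA, the STAT site TTCNNNGAA, the E-box CACGTG, the GC box GGGCGG and the TATA box TATAAA, and no match overlapped another. Lgals9 held the interferon response element on the opposite strand at -55 to -46 and at 16 to 25, counted from the start as 1 with no 0. Of 32851 promoter windows of this length 3.44% held that motif, and 0.225% held it at least 2 times. Lgals3 held GGGCGG at -7 to -2 and at 5 to 10, and Lgalsl held it at -228 to -223, -148 to -143 and -31 to -26, where 35.66% of all windows held it. The windows of Lgals3bp and Lgals8 held none of the 6 motifs. The AP-1, STAT, E-box and TATA letters were in 7.81%, 8.3%, 7.15% and 13.62% of all windows and in no member's window. Lgalsl had 41 CpG dinucleotides in its window, more than 96.5% of all windows, Lgals3 had 18, and Lgals8, Lgals9 and Lgals3bp had 6, 4 and 3. The matches describe the letters and show no binding. The windows of Lgals3 and Lgals8 lie inside the gene spans given above, and any other start of these genes was not searched.

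Among the injured libraries, Lgals1, Lgals3, Lgals9 and Lgals3bp were all highest in SCI replicate 2, at 1.27, 1.33, 1.11 and 1.16 times the mean of SCI replicates 1 and 3. Their lowest library differed, being SCI replicate 3 for Lgals1 and Lgals3 and SCI replicate 1 for Lgals9 and Lgals3bp. Lgals8 and Lgalsl were both lowest in SCI replicate 2, at 0.897 and 0.941 times the mean of SCI replicates 1 and 3. The median-ratio scaling factor was also lowest there, at 0.905 against 1.007 and 0.998 in SCI replicates 1 and 3. It is a median over genes above 1 FPKM in every library, so a typical gene was lower in SCI replicate 2 too. The shared phagocyte markers summed to 457, 622 and 474 FPKM in SCI replicates 1, 2 and 3, against 67.9, 55.0 and 58.4 in the sham libraries. The monocyte and macrophage markers summed to 1393, 2456 and 1649 FPKM in SCI replicates 1, 2 and 3, against 161, 119 and 163 in sham, with SCI replicate 2 the highest injured library for 8 of the 9. All 4 haemoglobin genes and all 5 tested neutrophil genes were also highest there, and all 7 neuronal genes were lowest there. Haemoglobin summed to 4695, 44788 and 1522 FPKM in SCI replicates 1, 2 and 3, against 799 to 925 in sham. Ly6g, the defining neutrophil marker, was at 0.5, 0.93 and 0.19 FPKM in SCI replicates 1, 2 and 3, against 0.49 in sham replicate 1, and was listed at 0 in sham replicates 2 and 3. The part of these cells in the galectin values was not tested, and in bulk tissue more cells of a type cannot be told apart from more RNA per cell.

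**Figure D3:**
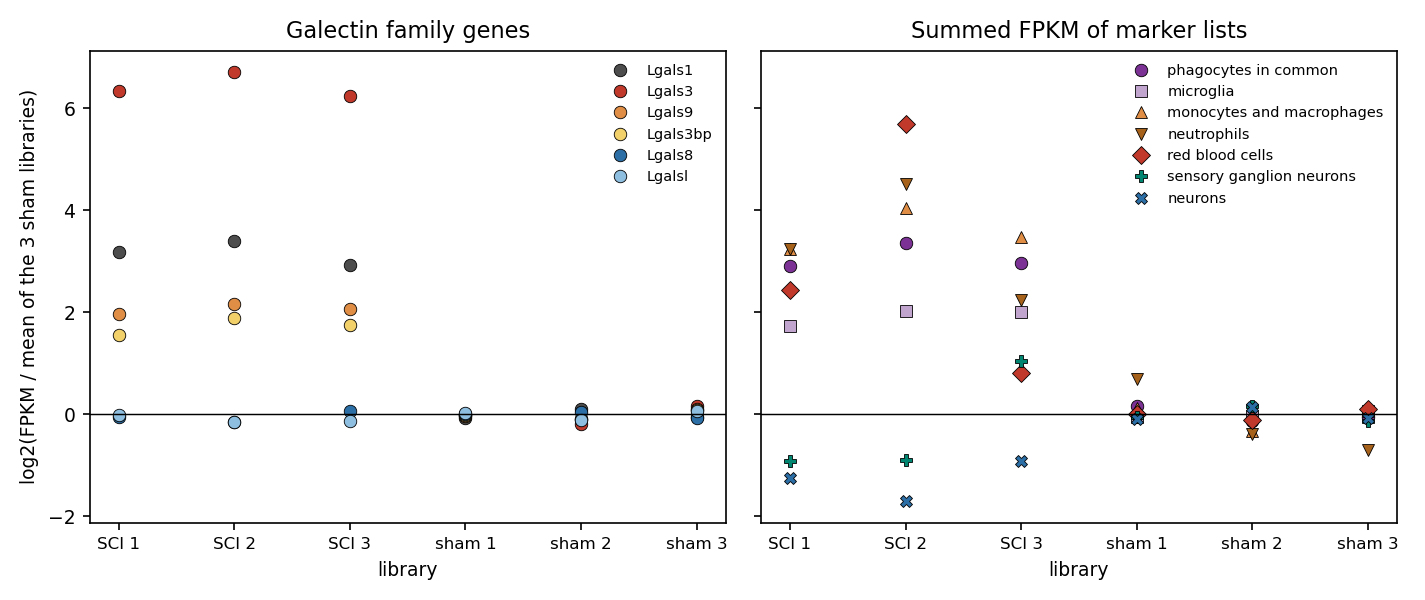
Log2 ratio of FPKM to the mean of the 3 sham libraries, for the 6 galectin family genes (left) and for the summed FPKM of 7 marker lists (right), in each library. SCI replicate 2 holds the highest values of Lgals1, Lgals3, Lgals9 and Lgals3bp, of the macrophage markers and of haemoglobin.

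Ratios to single phagocyte genes differed between the members and with the phagocyte gene chosen. The ratio of Lgals3 to Aif1, which encodes the microglial and macrophage protein Iba1, was 10.1, 10.3 and 7.38 in SCI replicates 1, 2 and 3, against 0.570, 0.656 and 0.635 in sham replicates 1, 2 and 3. The ratio of Lgals3 to Cd68, a lysosomal protein of phagocytes, was 1.22 ± 0.149 in SCI and 0.300 ± 0.047 in sham cord (SD, n = 3 each). The ratio of Lgals9 to Aif1 was instead 1.87 ± 0.186 in SCI and 2.61 ± 0.305 in sham cord. That of Lgals3bp to Aif1 was 2.08 ± 0.130 in SCI and 3.66 ± 0.373 in sham cord, and that of Lgals1 to Aif1 34.8 ± 7.50 in SCI and 22.5 ± 5.15 in sham cord. Lgals3 was thus higher and Lgals9 and Lgals3bp lower per Aif1 in injured cord, without overlap between the groups in each case, while the ranges for Lgals1 overlapped. Per Csf1r, a receptor of microglia and macrophages, Lgals9 went the other way, at 0.562 ± 0.065 in SCI and 0.435 ± 0.036 in sham cord (SD, n = 3 each), again without overlap. The log2 change of Lgals3bp (1.68) was close to that of Csf1r (1.67) and below that of Aif1 (2.33). That of Lgals1 (3.17) lay above Csf1r and below Cd68 (4.27). The reading of Lgals3bp and Lgals1 per phagocyte gene thus depended on the gene chosen as well.

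The genes with profiles most like each member were sought among 11842 genes with a mean of at least 5 FPKM, by Euclidean distance between log2(FPKM + 1) profiles set to the sham mean over the 6 libraries. For Lgals1 the nearest 5 were Birc5 (survivin, distance 0.15), Mcm5 (0.15), Cep55 (0.16), Mcm3 (0.19) and Fam111a (0.23). All 5 were low in sham cord, with means of 0.42 (Cep55) to 2.80 FPKM (Mcm3), against 107 for Lgals1. With a pseudocount of 0.1 their log2 changes were 3.42 (Mcm3) to 4.48 (Cep55), all above the 3.18 of Lgals1. Their closeness to Lgals1 thus depends on the pseudocount of 1. Birc5 and Cep55 act in cell division and Mcm5 and Mcm3 belong to the replicative helicase, and Mcm5 was at 26.8 ± 5.25 FPKM in SCI and 1.91 ± 0.095 in sham cord (SD, n = 3 each). For Lgals3 the nearest 5 included Hmox1 (haem oxygenase, 0.83), Sprr1a (0.88), Tgm1 (transglutaminase, 0.92) and Thbs1 (thrombospondin, 1.25), at larger distances than for the other members. Hmox1 was at 591 ± 114 FPKM in SCI and 10.4 ± 3.84 in sham cord. For Lgals9 they included Kcnk6 (0.13), Casp12 (0.16), the immunoproteasome subunit Psmb8 (0.18) and Car13 (0.20). For Lgals3bp they were the lysosomal protease Ctsb (0.15), F11r (0.17), the proton pump subunit Tcirg1 (0.18), the receptor Csf1r of microglia and macrophages (0.22) and Rps27l (0.23). Lgals8 and Lgalsl lay nearest to genes that differed as little as they did, such as Sar1b (0.053) and Unc45a (0.058). These lists describe likeness on the log2(FPKM + 1) scale, which understates changes of low genes, over 6 libraries that fall into 2 groups. They were not tested.

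Other galectin genes were scarce in the cord. Of the 6 listed, 5 were in the files and 3 were high enough to test, and only Lgals2 passed. Lgals2, a dimeric galectin best known from the gut, was at 2.3, 4.55 and 3.14 FPKM in SCI replicates 1, 2 and 3, against 1.3, 2.28 and 1.46 in sham replicates 1, 2 and 3. The groups were apart by no more than 0.02 FPKM at their closest, and the log2 change was 0.68 (SE 0.23, limma adjusted p = 0.036). The call ended without SCI replicate 2 (0.48), SCI replicate 3 (0.69), sham replicate 1 (0.58) or sham replicate 3 (0.62), and Lgals2 overlaps the more abundant Cdc42ep1 on the opposite strand (41.0 ± 6.80 FPKM in SCI and 44.0 ± 0.186 in sham cord). Lgals4 was at 3.76 ± 0.611 FPKM in SCI and 4.24 ± 0.956 in sham cord (SD, n = 3 each) and did not pass (log2 change -0.13, which turned to 0.014 without sham replicate 1). Grifin, the lens galectin, had a log2 change of 0.60 and passed only without sham replicate 2 (1.04). Lgals12 was at 0.13, 0.15 and 0.18 FPKM in SCI replicates 1, 2 and 3, against 0.21, 0.27 and 0.12 in sham replicates 1, 2 and 3, and Lgals7 was listed at 0 in 4 of the 6 libraries. Grifin, Lgals12 and Lgals7 were named after their values were seen. Values of Lgals6, a close copy of Lgals4, were not analysed here.

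Most genes that encode galectin receptors and ligands were higher in the injured cord. Of 23 tested (24 listed), 17 were higher and 4 lower, with a median log2 change of 1.33 where the median of all tested genes was -0.08, and 26.7% of all tested genes were higher and 30.8% lower. Fn1, the matrix protein fibronectin, was at 212.77, 349.71 and 181.64 FPKM in SCI replicates 1, 2 and 3, against 12.78, 9.5 and 14.06 in sham replicates 1, 2 and 3 (log2 change 4.21, SE 0.25, limma adjusted p = 2.7e-05). Cd44, the hyaluronan receptor, was at 66.4 ± 7.64 FPKM in SCI and 5.02 ± 1.10 in sham cord (log2 change 3.50, SE 0.15, adjusted p = 1.2e-05). Itgam, the integrin chain of myeloid cells, rose to 85.8 ± 28.6 FPKM in SCI cord, against 7.78 ± 1.47 in sham cord (SD, n = 3 each, log2 change 3.27). Pdpn, a sialoglycoprotein bound by galectin-8, rose 10.1-fold, to 86.2 ± 29.5 against 8.52 ± 1.77 FPKM. In 17 of the 23 the highest injured library was SCI replicate 2, as for 5 of the 6 phagocyte markers (Itgam and Trem2 are on both lists), and without that library 18 were higher and 4 lower.

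Receptors named for 1 galectin behaved as follows. Havcr2 (Tim-3), the receptor of galectin-9, was at 13.49, 20.12 and 15.19 FPKM in SCI replicates 1, 2 and 3, against 1.79, 1.51 and 1.95 in sham replicates 1, 2 and 3 (log2 change 2.64, SE 0.16, adjusted p = 2.7e-05). The groups did not overlap. Trem2, a lipid-sensing receptor of microglia to which galectin-3 binds, was at 24.2 ± 2.31 FPKM in SCI and 4.08 ± 0.358 in sham cord (SD, n = 3 each), a log2 change of 2.31. Mertk, the phagocytic TAM receptor for which galectin-3 is a ligand, had a log2 change of 1.33. Lag3, on the same list, was at 3.30 ± 0.472 FPKM in SCI and 3.68 ± 0.753 in sham cord. Its groups overlapped and it did not pass (log2 change -0.11), and it was named after its values were seen. Of the lysosomal membrane glycoproteins that carry galectin-binding sugars, Lamp2 rose 2.02-fold, to 68.6 ± 1.49 FPKM in SCI against 33.9 ± 2.32 in sham cord. Lamp1 was at 537 ± 34.3 in SCI and 475 ± 4.28 in sham cord and did not pass (log2 change 0.17, adjusted p = 0.098), but leaving out SCI replicate 2 (0.21) or median-ratio scaling (0.27) brought it past the threshold. The 4 lower genes were Thy1, Tfrc, Alcam and Plxna4. Thy1, a neuronal surface glycoprotein, fell to 173 ± 31.2 FPKM in SCI cord against 365 ± 9.24 in sham cord (log2 change -1.09, SE 0.13, adjusted p = 5.1e-04). The transferrin receptor Tfrc fell by 0.43 on the log2 scale. The last 3 of the 4 were named after their values were seen. Alcam (-0.27) lost its call without SCI replicate 1 (-0.30) or any 1 sham library (-0.24 to -0.28). Plxna4 (-0.42) lost its call without SCI replicate 1 (-0.49), any 1 sham library (-0.40 to -0.45) or with a replicate block (adjusted p = 0.050).

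**Figure D4:**
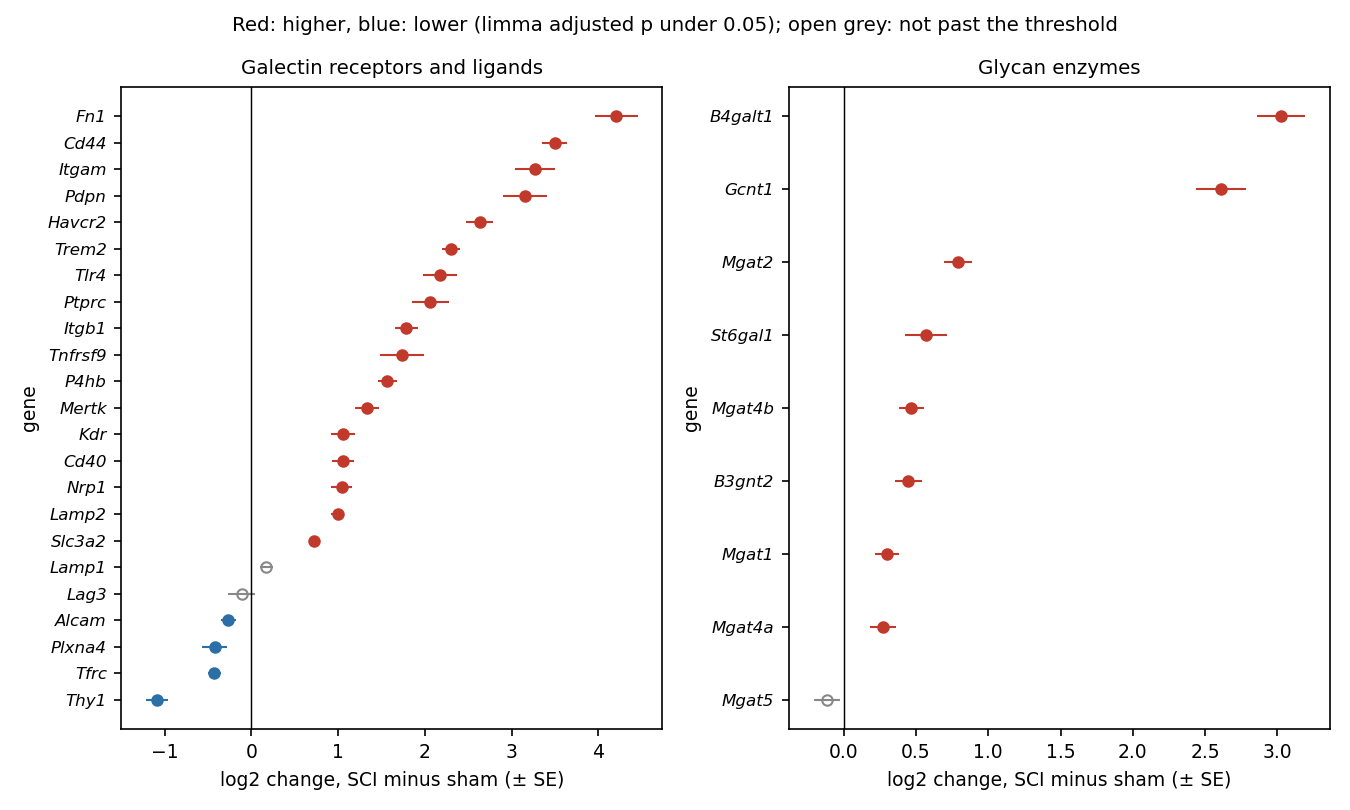
Log2 change (SCI minus sham, with limma's SE as bars) of the tested galectin receptors and ligands (left) and of the enzymes that build or cap galectin-binding sugars (right), on separate axes. Of the genes on the left 17 are higher, 4 lower and 2 not past the threshold, and on the right 8 are higher and 1 is not.

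Enzymes that build or cap the sugars galectins bind were mostly higher. Of 9 tested, 8 were higher and none lower, with a median log2 change of 0.47, where 26.7% of all tested genes were higher and 30.8% lower, with a median of -0.08. B4galt1, which adds the galactose that galectins recognise, was at 30.35, 40.57 and 29.62 FPKM in SCI replicates 1, 2 and 3, against 4.03, 2.62 and 3.05 in sham replicates 1, 2 and 3 (log2 change 3.03, SE 0.17, limma adjusted p = 2.1e-05). All injured libraries lay far above sham. Gcnt1, which starts the core 2 branch of O-linked sugars, was at 9.18, 14.32 and 9.63 FPKM in SCI replicates 1, 2 and 3, against 0.91, 1.11 and 0.81 in sham replicates 1, 2 and 3, an 11.7-fold rise between the means. Mgat2, an N-glycan branching enzyme, was at 44.0 ± 5.18 in SCI and 24.9 ± 0.566 in sham cord (log2 change 0.79). Mgat4b, which adds another branch, was at 30.6 ± 1.61 in SCI and 21.8 ± 1.75 in sham cord (log2 change 0.47). Mgat5, whose branch favours galectin-3 binding, was at 14.2 ± 0.860 in SCI and 15.5 ± 1.25 in sham cord, with overlapping groups, and did not pass (log2 change -0.12). St6gal1, whose sialic acid cap blocks galectin-1 binding, was at 30.9 ± 4.64 in SCI and 20.5 ± 3.06 in sham cord (log2 change 0.57, SE 0.14, adjusted p = 0.012). Of the calls with the smallest changes, that on Mgat4a (0.27) ended without any 1 library except SCI replicate 2 (0.21 to 0.30), with the block (adjusted p = 0.059), under quantile normalization (0.18) and when low genes were not filtered out (adjusted p = 0.063). That on Mgat1 (0.30) ended without SCI replicate 1 (0.25) or sham replicate 2 (0.25).

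Genes that act with galectins at damaged lysosomes were called in both directions. Of 15 tested (16 listed), 2 were higher and 6 lower, with a median log2 change of -0.18. With 57.5% of all tested genes past the threshold and 30.8% lower, the 8 of 15 past it and the 6 lower were near the background and are no result about the list. Trim16, the ubiquitin ligase that binds galectin-3 at ruptured lysosomes, was at 5.66, 5.49 and 6.94 FPKM in SCI replicates 1, 2 and 3, against 4.04, 4.83 and 4.89 in sham replicates 1, 2 and 3. The groups did not overlap, but the log2 change of 0.33 did not pass (limma adjusted p = 0.053), and it passed under median-ratio scaling (0.41) or when SCI replicate 2 was left out (0.38). Calcoco2, the galectin-8 receptor of human cells, was listed at 0 in 3 libraries and reached at most 0.45 FPKM, and was named after its values were seen. Ube2ql1, a ubiquitin-conjugating enzyme of lysosome clearance, fell to 38.1 ± 8.16 FPKM in SCI cord against 79.6 ± 4.91 in sham cord (log2 change -1.06, SE 0.15, adjusted p = 0.0011). The autophagy genes Gabarapl2 (-0.67), Map1lc3b (-0.54) and Calcoco1 (-0.40) were lower too. Calcoco1 lost its call without sham replicate 1 (-0.36) or sham replicate 3 (-0.39). Sqstm1, the autophagy receptor p62, was at 259 ± 49.8 FPKM in SCI and 326 ± 19.8 in sham cord and did not pass (log2 change -0.35, adjusted p = 0.074), although it did without SCI replicate 3 (-0.47), under quantile normalization (-0.41) and without mitochondrial and haemoglobin genes (-0.38). Chmp4b, an ESCRT subunit of membrane repair, was at 187 ± 7.80 in SCI and 203 ± 19.0 in sham cord, with overlapping groups, and did not pass (log2 change -0.11). The higher pair was Vcp (0.34) and Pdcd6ip (0.25), named after their values were seen, and Pdcd6ip lost its call without SCI replicate 1 (0.21), sham replicate 1 (0.24) or sham replicate 2 (0.23). In 13 of the 15 the lowest injured library was SCI replicate 2. The same held for all 7 neuronal, all 6 oligodendrocyte and all 4 muscle genes, but for 1 of the 9 microglial genes. The median-ratio scaling factor was also lowest in that library (0.905), so the trait is not particular to this list or to neurons. The part of neuronal RNA in these values was not tested. With 8 of the list past the threshold in all, leaving out sham replicate 1, 2 or 3 left 5 in each case, and leaving out SCI replicate 2 gave 4 higher and 5 lower.

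Interferon response genes, listed because Lgals9 and Lgals3bp are known interferon targets, had 11 of 13 members higher and none lower, with a median log2 change of 1.08, against 26.7% of all tested genes higher and a median of -0.08. Ifitm3, an antiviral membrane protein, was at 340.14, 322.47 and 249.69 FPKM in SCI replicates 1, 2 and 3, against 65.86, 48.42 and 61.39 in sham replicates 1, 2 and 3 (log2 change 2.36, SE 0.15, limma adjusted p = 4.1e-05). The groups were well apart. Oas1a (2.34), which senses double-stranded RNA, Bst2 (2.21), which tethers virions, and the transcription factor Irf7 (1.58) rose too. Of these, Bst2 was at 61.0 ± 2.32 FPKM in SCI and 13.0 ± 5.16 in sham cord (SD, n = 3 each). Stat2, a transcription factor that carries the interferon signal, did not pass (0.32), and leaving out SCI replicate 2 (0.44) or median-ratio scaling (0.41) brought it past the threshold. It was named after its values were seen. SCI replicate 2 was the highest injured library for 3 of the 13 and the lowest for 8, unlike Lgals9 and Lgals3bp, which were highest there. Among the sham libraries, Lgals9 (13.5 FPKM) and Lgals3bp (18.8) were highest in sham replicate 3. So were all of the 13 except Stat2, Ifitm3 and Oas1a, with Bst2 at 18.8 and Irf7 at 3.46 FPKM there. The part of interferon in the Lgals9 and Lgals3bp values was not tested.

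**Figure D5:**
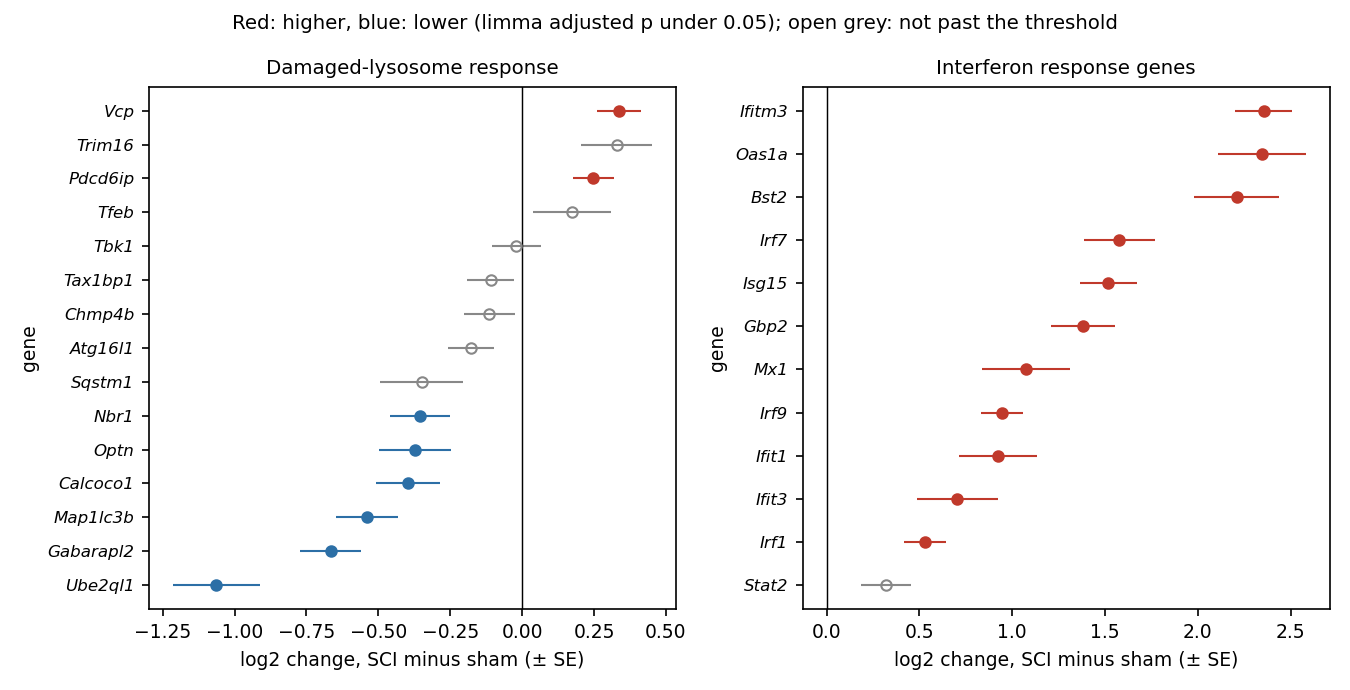
Log2 change (SCI minus sham, with limma's SE as bars) of the 15 tested genes of the damaged-lysosome response (left) and of 12 genes of the interferon response (right), on separate axes. On the left 2 genes are higher and 6 lower, and on the right 11 are higher and 1 did not pass.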

How the data were processed

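Each deposited file holds FPKM of 1 library, per the file headers. The build mm9 and the tools StringTie 1.3.4d, HISAT2 2.0.4, cutadapt 1.9, edgeR, DESeq2 and UMI-tools are named without role or order, per the submitters' processing notes. The coordinates in the files are those of GRCm38: 91.7% of the 36502 gene identifiers also found in GENCODE M21 stood at its position. FPKM hold no counts. Log2 ratios of low genes of short span between libraries showed no step of whole reads (the fullest bin of 0.05 held 2.38% to 3.56% of genes), so the depth is unknown. FPKM summed to 716215 to 734791 per library, so abundant genes depress the values of all others.

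The 17435 of 36629 genes that reached 1 FPKM in 3 or more of the 6 libraries were fitted as log2(FPKM + 1), SCI minus sham, with a mean-variance trend by limma 3.58.1 (R 4.3.3). This scale understates changes of low genes. Benjamini-Hochberg adjustment covered all tested genes, at a threshold of 0.05. The members and the lists were chosen with earlier results of these data known. Members were described, with no p. Named from each list were its 2 most abundant genes and the 4 called genes that changed most, with 8 genes in every case and the 5 genes nearest in profile to each member. Alternatives changed the pseudocount, filter, scaling, libraries or a replicate block, 12 in all. Some genes that the rule names are not reported here.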

Additional observations from a re-analysis of the deposited data

How the results depend on the processing

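Over the 12 alternatives run, given as a description, the log2 change ranged from 5.89 to 6.39 for Lgals3, 3.05 to 3.29 for Lgals1, 1.94 to 2.08 for Lgals9 and 1.61 to 1.78 for Lgals3bp. Leaving out 1 library gave 8354 to 9636 genes past the threshold (10024 with all 6), 0 to 2 other galectin genes (1 with all) and 5 to 9 genes of the damaged-lysosome list (8 with all). The other galectin count was 0 with no filter on low values and 0 under quantile normalization. The fit with a replicate block had 9443 genes past the threshold. The deviations of same-numbered libraries from their group means correlated at -0.039 to 0.022, and only those numbered 3 correlated best with each other. With 3 libraries a group, such correlations cannot settle whether the replicate numbers pair the libraries. With the block, the call was lost for Plxna4, Mgat4a, Optn and Pdcd6ip. In runs without 1 library the log2 change spanned -0.10 to 0.0021 for Lgals8, -0.21 to 0.014 for Lgals4, -0.068 to 0.032 for Sar1b, -0.085 to 0.027 for Ubap1 and -0.065 to 0.034 for Tbk1. Signs turned only for genes that did not pass. Under median-ratio scaling the log2 change became 0.045 for Lgals8, 7.3e-04 for Lgalsl, 0.075 for Sar1b, 0.035 for Gcsh, 0.017 for B4galt4, 0.027 for Gm15459, 0.055 for Ubap1, 0.027 for Snrnp70 and 0.073 for Tbk1. Without sham replicate 2 it was 0.0042 for Sar1b and 0.013 for Tbk1, and under quantile normalization it was 0.025 for Sar1b. The cause was not tested. Of 1188 values of 99 genes, 1109 kept direction and side of the threshold. With 3 libraries a group and no depth, small changes of low genes such as Lgals2 are poorly resolved.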
